A study of Homo sapiens with 24 samples.

Results

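The effect of EGBG on differentiating keratinocytes was compared between cells that were also given spermidine/spermine and cells that were not. Of the 24 arrays of the series, 16 form this 2 by 2 design, chosen by their labels with 4 arrays in each group. All 4 groups come from N/TERT1, a human keratinocyte line made immortal with telomerase, and were harvested on day 6 after a switch to medium with 1.2 mM calcium. At day 3 the cells received 50 µM EGBG together with 1 mM spermidine/spermine (EGBG+SDSM), 1 mM spermidine/spermine without EGBG (SDSM), 50 µM EGBG without polyamines (EGBG), or no compound (day 6). The labels leave unclear if 1 mM refers to each polyamine or to both together. The samples are labelled biological replicates, with nothing on whether cultures were separate, so the p-values cover only the variation among these samples, which may be technical. The interaction is the EGBG effect with polyamines (EGBG+SDSM minus SDSM) minus the EGBG effect without them (EGBG minus day 6), each a difference of group means of normalized log2 signals. It was computed for the 13000 of 47304 probes that 4 or more of the 16 arrays detected (detection p under 0.01).

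Polyamines are small positively charged molecules that bind RNA, DNA and the translation machinery. ODC1 makes putrescine from ornithine, and AMD1 supplies the aminopropyl groups with which the synthases SRM and SMS extend putrescine to spermidine and then spermine. EGBG, ethylglyoxal bis(guanylhydrazone), inhibits AMD1, so that spermidine and spermine given from outside bypass the blocked step. Calcium drives cultured keratinocytes through the spinous and granular stages of epidermal differentiation, at the end of which they build the cornified envelope and the lipids of the skin barrier.

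Each of the 16 arrays detected between 10348 and 12396 probes at a mean background-subtracted intensity of 345 to 620 units, and the number of arrays limits the precision. All 9 keratinocyte markers were tested, with KRT5, KRT14, KRT1 and KRT10 among them. On all 16 arrays, 7 of the 9 melanocyte markers on the array were undetected, TYR, MLANA and SOX10 among them, as were 11 of 15 fibroblast markers and 9 of 15 immune cell markers. The summed signal of the fibroblast markers was 659 to 818 on EGBG+SDSM arrays, 573 to 1000 on SDSM arrays, 1328 to 1754 on EGBG arrays and 612 to 1389 on day 6 arrays, against 81811 to 199989 for the keratinocyte markers over all 16 arrays. Of the 3 fibroblast markers tested, ACTA2, smooth muscle actin, had an interaction past the threshold (-1.83), as did CD14 (-1.65) among 4 immune markers, while COL1A2, COL3A1, PDGFRA, PTPRC and CD3E were undetected on all 16 arrays. The part of these markers in the results was not tested. Over all tested probes, EGBG+SDSM arrays correlated with SDSM arrays at r between 0.965 and 0.989, within the range of 0.957 to 0.991 found between arrays of 1 group, whereas EGBG arrays correlated with day 6 arrays at 0.905 to 0.938.

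EGBG changed far fewer genes when spermidine/spermine was present. Without polyamines, 2515 probes rose and 2266 fell with EGBG at an adjusted p under 0.05 (36.8% of the probes tested). With polyamines, 21 rose and 13 fell (0.262%), although 1562 had an unadjusted p under 0.05. Same-numbered arrays with and without EGBG deviated together in both settings, and with the replicate number as a block 105 probes passed for EGBG with polyamines, or 225 with a block within each setting. The difference between both effects was itself past the threshold for 1951 probes (15%), 1130 of them positive and 821 negative, and for 3039 with a block within each setting. In a further deposited table, in which values under 40 had been set to 40, the calls numbered 922 positive and 343 negative for the interaction and 1177 higher and 2229 lower for EGBG without polyamines. A positive interaction means that the EGBG effect was higher with polyamines than without. Among the positive interactions the median EGBG effect was -0.04 with polyamines and -1.32 without, and among the negative ones it was 0.03 and 1.05. Of the 1951 probes, 1875 had an EGBG effect past the threshold without SDSM and not with it. The reverse held for 4, those of APLNR, MYO5B and PLD1 and 1 probe without a gene name. In 4 others, the OVOL1 probe among them, both effects passed with the same sign, the smaller one as fitted being that with SDSM. RNA was taken from whole cultures, in which fewer cells of a type and less RNA per cell cannot be told apart.

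**Figure D1:**
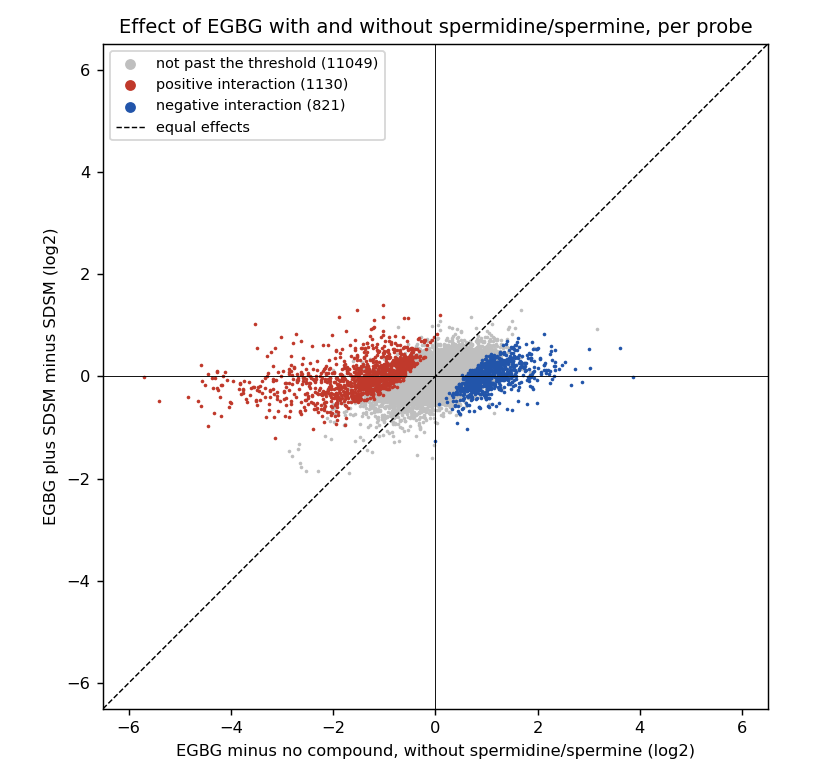
Each point is 1 of the 13000 probes, with the EGBG effect with spermidine/spermine on the vertical axis and without it on the horizontal axis, both as log2 differences. The 1130 probes with a positive interaction and the 821 with a negative one lie along the horizontal axis, close to 0 on the vertical one.

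The passing counts alone do not show that EGBG had no effect beside polyamines. Of the 4781 probes that changed with EGBG without SDSM, 1883 (39.4%) also passed the interaction, so for the other probes a difference between both EGBG effects was not shown. The EGBG effect with SDSM had the same sign in 3492 of the 4781 (73%), against 64.1% of all probes, at a median size of 0.20 with SDSM and 0.83 without. For the 1718 that rose with EGBG and did not pass the interaction, the median effect was 0.19 with SDSM and 0.66 without. For the 1180 that fell it was -0.22 with SDSM and -0.74 without.

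By gene, each represented by its brightest probe with 1 symbol, 842 of 8283 genes had a positive interaction (10.2%) and 598 a negative one (7.22%). The nearest probes on either side of the threshold had adjusted p of 0.0499 and 0.0501. The largest positive interaction was that of S100A7, psoriasin, an antimicrobial protein of stressed epidermis. SPRR2B, a small proline-rich protein that is crosslinked into the cornified envelope, and ARG1, arginase, which turns arginine into ornithine, the substrate of ODC1, also stood among the 12 largest. The 250 bases before the start of these 3 genes, which moved together, are shown as examples with the single TATAAA motif of each in capitals. They lie at chr1:153460652-153460901 on the minus strand for S100A7, at chr1:153071612-153071861 on the minus strand for SPRR2B and at chr6:131572976-131573225 on the plus strand for ARG1, from the RefSeq annotation of GRCh38.p14.
S100A7: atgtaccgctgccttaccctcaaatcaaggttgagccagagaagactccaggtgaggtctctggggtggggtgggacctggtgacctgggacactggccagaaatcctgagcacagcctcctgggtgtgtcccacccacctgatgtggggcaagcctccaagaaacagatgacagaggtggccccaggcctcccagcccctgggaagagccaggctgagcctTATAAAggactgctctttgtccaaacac
SPRR2B: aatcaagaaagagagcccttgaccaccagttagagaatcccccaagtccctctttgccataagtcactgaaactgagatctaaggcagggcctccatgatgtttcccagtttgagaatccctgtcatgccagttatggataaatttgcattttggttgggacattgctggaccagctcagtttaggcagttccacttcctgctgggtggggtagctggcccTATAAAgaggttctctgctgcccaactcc
ARG1: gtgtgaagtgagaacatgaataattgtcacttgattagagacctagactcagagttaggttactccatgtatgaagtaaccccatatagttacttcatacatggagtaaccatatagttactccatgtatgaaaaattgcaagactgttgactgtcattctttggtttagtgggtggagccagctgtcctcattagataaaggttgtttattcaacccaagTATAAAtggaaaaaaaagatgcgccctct

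The motif starts at -28 in S100A7 and at -29 in SPRR2B and ARG1, counted from the gene start. It was not common to the 12 largest positive interactions. PTGS2 had it at -32, but SERPINA12, CRISPLD2, LRRC20, ZBED2 and LCE3E had 0 sites. CABYR, among the 12 largest negative interactions, also had it at -32. Searched on both strands of the 250 bases, TATAAA was present in 12.3% of 682 promoters of genes with a positive interaction, 7.44% of 497 with a negative one and 6.39% of the 6828 tested genes that had an entry. Over all 27305 promoters of the table the share was 11.1%. The AP-1 motif TGANTCA was found in 8.94%, 3.22%, 4.53% and 6.6% of these sets in the same order. The core of the antioxidant response element, TGACNNNGC, which can share its first bases with TGANTCA, was found in 13.2%, 12.5%, 12.7% and 11%. Neither motif was found in the 3 sequences shown.

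S100A7 had signals of 15.08, 14.74, 15.25 and 15.11 on EGBG+SDSM arrays and 15.13, 15.07, 14.85 and 15.18 on SDSM arrays. Without polyamines they were 9.82, 8.17, 7.80 and 8.02 on EGBG arrays and 13.53, 14.87, 13.63 and 14.57 on day 6 arrays. EGBG arrays lay below all others, and the groups with polyamines overlapped. Signals with polyamines lay near the highest of any probe, 15.92, where differences can be compressed. The EGBG effect was -0.01 with SDSM and -5.70 without, and the interaction was 5.69 ± 0.51 (SE, adjusted p = 6.83e-07).

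SPRR2B measured 9.91, 9.60, 9.77 and 9.51 on EGBG+SDSM arrays against 10.23, 9.92, 10.28 and 10.26 on SDSM arrays. It was detected on 0 of 4 EGBG arrays, where the signals were 5.56, 5.45, 5.41 and 5.85, and on day 6 arrays it measured 11.10, 11.56, 10.42 and 10.84. EGBG arrays thus stood apart from all others. Without polyamines SPRR2B was at least 20.5-fold lower with EGBG than on day 6 arrays (adjusted p = 8.59e-12, means 5.57 and 10.98). The interaction, 4.93 as fitted, is at least 3.88 when the EGBG group is held at its detection limit. The SPRR2 and LCE3 genes are near-identical copies, and whether their probes share transcripts was not tested.

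ARG1 read 13.36, 13.49, 13.19 and 13.41 on EGBG+SDSM arrays and 13.78, 13.45, 13.35 and 13.57 on SDSM arrays. EGBG arrays read 6.81, 8.48, 8.36 and 8.86, and day 6 arrays 12.65, 12.55, 12.48 and 12.81. Again only EGBG arrays were low. The interaction was 4.32 ± 0.42 (SE, adjusted p = 1.83e-06), with an EGBG effect of -0.18 with SDSM and -4.50 without.

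PTGS2, cyclooxygenase 2, which makes prostaglandin precursors, followed the same pattern. It measured 11.95, 11.33, 10.41 and 11.22 on EGBG+SDSM arrays and 11.53, 11.58, 10.83 and 10.97 on SDSM arrays, but 6.67, 6.37, 6.43 and 7.27 on EGBG arrays against 10.48, 10.83, 10.56 and 11.49 on day 6 arrays. The EGBG arrays did not overlap the other groups, and the interaction was 4.16 ± 0.43 (SE, adjusted p = 3.39e-06).

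The other 8 of the 12 largest positive interactions were 4.80 for SERPINA12, a serine protease inhibitor, 4.47 for WFDC12, a whey acidic protein family inhibitor, 4.43 for SPRR2C, 4.28 for the late cornified envelope gene LCE3E, 4.38 for CRISPLD2, 4.34 for LRRC20, 4.34 for ZBED2 and 4.19 for the secreted phospholipase PLA2G3. All 8 fell with EGBG without polyamines, by 4.11 to 4.83 on the log2 scale as fitted. With polyamines their EGBG effects ranged from -0.40 in SPRR2C to 0.23 in SERPINA12, and none passed the threshold. CRISPLD2, LRRC20, ZBED2 and PLA2G3 were detected on 0 of 4 EGBG arrays, which makes their interactions at least 3.97, 3.81, 3.53 and 3.29.

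**Figure D2:**
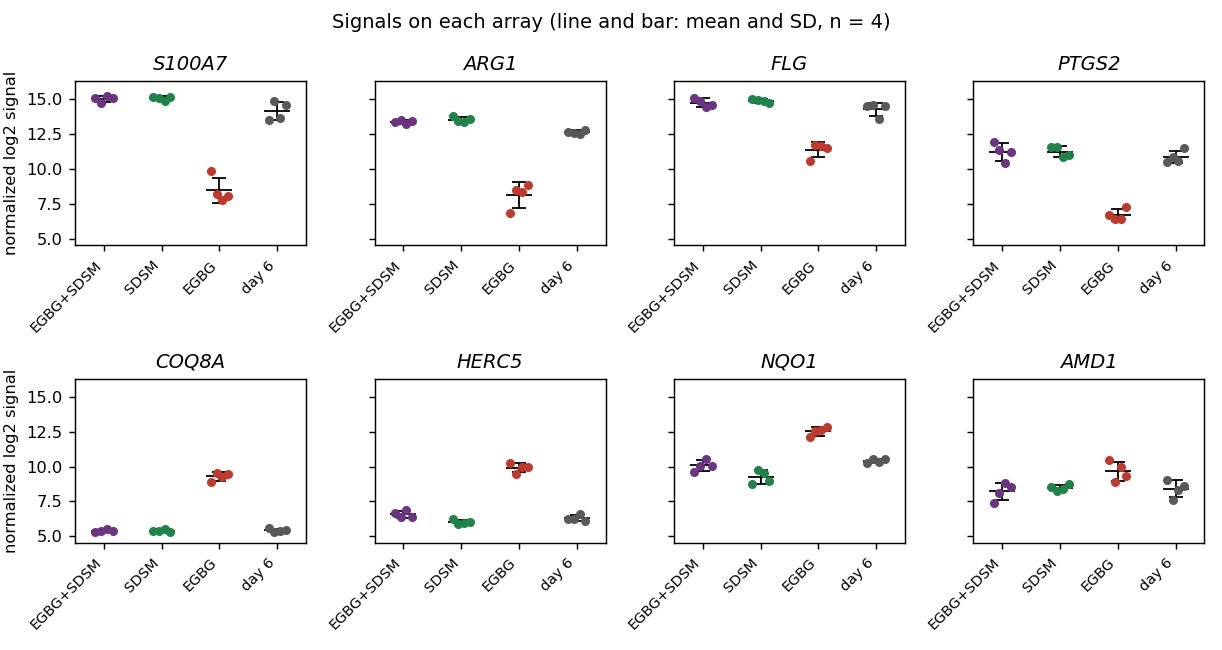
Normalized log2 signals of 8 genes on the 4 arrays of each group, with the group mean and SD as line and bar. S100A7, ARG1, FLG and PTGS2 were low on EGBG arrays and not on EGBG+SDSM arrays; COQ8A, HERC5, NQO1 and AMD1 had their highest group mean on EGBG arrays.

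Genes of the late stages of keratinocyte differentiation were lower with EGBG on arrays without polyamines and had positive interactions. Of 47 cornified envelope genes tested, 39 had a positive interaction and 0 a negative one, together 83% against 17.4% of all genes. The percentage given with the counts of other lists is this share, in either direction. Cornified envelope genes had a median interaction of 2.93 against -0.04 over all 8283 genes. Their median EGBG effect was -0.26 with SDSM and -3.17 without. The list's median level was 12.04 to 12.39 on EGBG+SDSM arrays and 12.47 to 12.84 on SDSM arrays, and 7.97 to 8.54 on EGBG arrays against 11.15 to 11.62 on day 6 arrays.

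FLG, profilaggrin, the precursor of the protein that packs keratin filaments and yields the natural moisturizing factors of skin, measured 15.11, 14.88, 14.43 and 14.59 on EGBG+SDSM arrays and 14.996, 14.96, 14.85 and 14.72 on SDSM arrays. On EGBG arrays it measured 10.56, 11.74, 11.63 and 11.51, and on day 6 arrays 14.48, 14.59, 13.59 and 14.50. The arrays with polyamines overlapped, and the EGBG arrays lay below every other array, with an interaction of 2.80 ± 0.36 (SE, adjusted p = 3.87e-05). Its relative FLG2 had an interaction of 4.11, LORICRIN, the main protein of the envelope, 2.70, and the early envelope protein IVL, involucrin, 2.83. LCE3D, another late cornified envelope gene, averaged 15.51 ± 0.15 on EGBG+SDSM arrays and 15.59 ± 0.04 on SDSM arrays, and 10.91 ± 0.31 on EGBG arrays against 14.98 ± 0.39 on day 6 arrays (SD, n = 4 each). Its signals with polyamines lay near the highest of any probe, 15.92, where differences can be compressed. Not all envelope genes had such interactions: SPRR1A had one of 0.07 and HRNR, hornerin, one of 0.42 as fitted with 0 of 4 EGBG arrays detecting it, neither past the threshold.

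Among 30 tested genes of barrier lipid synthesis, 21 had a positive interaction and 0 a negative one (70%, median 1.52). ABCA12, which loads lipids into lamellar granules, averaged 10.14 ± 0.22 on EGBG+SDSM arrays and 10.53 ± 0.19 on SDSM arrays, and 7.32 ± 0.45 on EGBG arrays against 9.72 ± 0.22 on day 6 arrays (SD, n = 4 each), an interaction of 2.02 ± 0.28 (SE, adjusted p = 9.80e-05). Epidermal lipoxygenases ALOX12B and ALOXE3 had interactions of 2.25 and 1.81, and the fatty acid hydroxylase CYP4F22 one of 3.26. Epidermal proteases and their inhibitors gave 23 positive and 0 negative of 33 (69.7%, median 1.38), with 1.43 for KLK7, which degrades corneodesmosomes, and 1.00 for CASP14, a caspase of cornification.

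Stress keratins and antimicrobial genes gave 15 positive and 0 negative interactions of 22 (68.2%, median 1.81). S100A9, a calprotectin subunit, read 15.51, 15.53, 15.45 and 15.53 on EGBG+SDSM arrays and 15.40, 15.43, 15.51 and 15.66 on SDSM arrays, and 13.67, 11.71, 12.44 and 11.02 on EGBG arrays against 15.57, 15.48, 15.44 and 15.54 on day 6 arrays. It was lower only on EGBG arrays and close to the top of the signal range elsewhere. Its partner S100A8 had an interaction of 1.18.

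Spinous layer genes, which are switched on earlier in differentiation, were mixed: 11 of 25 had a positive interaction, 1 a negative one (48%), and the median was 0.63. The suprabasal keratin KRT1 averaged 13.82 ± 0.17 on EGBG+SDSM arrays, 13.78 ± 0.68 on SDSM arrays, 13.77 ± 0.29 on EGBG arrays and 14.31 ± 0.61 on day 6 arrays (SD, n = 4 each), groups that overlapped. Its interaction was 0.58 ± 0.43 (SE, adjusted p = 0.437), and that of its partner KRT10 was 0.02 ± 0.29 (SE, adjusted p = 0.981). CALML5, a calcium-binding protein of late differentiation, had an interaction of 3.61, and GJB6, a gap junction protein, one of 2.09. The exception was DSC3, a desmosomal cadherin of the lower layers, at -1.05 (adjusted p = 0.0456). Its call was lost in 13 of 16 refits that each left out 1 array and remained without day 6 replicate 1, EGBG replicate 2 or EGBG replicate 4, and its other probe did not pass.

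Of 32 tested transcription factors of differentiation, 10 had a positive interaction and 2 a negative one (37.5%), with a median of 0.27. KLF4, needed for barrier formation in mice, averaged 12.09 ± 0.40 on EGBG+SDSM arrays and 12.67 ± 0.13 on SDSM arrays, and 10.05 ± 0.15 on EGBG arrays against 11.80 ± 0.49 on day 6 arrays (SD, n = 4 each), an interaction of 1.18 ± 0.31 (SE, adjusted p = 0.0158). PRDM1 had an interaction of 1.94 and GRHL1 of 1.45, with other probes at 0.72 and 0.80 that did not pass. OVOL1, detected on 0 of 4 EGBG arrays, had one of at least 0.41, which did not pass with an offset of 64 (adjusted p = 0.0577). The EGBG effect on OVOL1 also passed beside polyamines, at -0.93 with SDSM (adjusted p = 0.0477) and -1.94 without as fitted. The negative members were NOTCH1, a receptor that promotes keratinocyte differentiation, at -1.85, and ID2, an inhibitor of basic helix-loop-helix factors, at -1.40. The other ID2 probe, at -1.48, did not pass. Genes of the basal layer and hemidesmosomes had a median interaction of 0.26, or 0.17 with undetected groups at their limit. They gave 3 positive and 0 negative of 21, 14.3% against 17.4% of all genes. The positive ones were THBS1, which no EGBG array detected, at 1.63 or more, COL4A1 at 2.46 and ITGA2 at 0.89. The call of ITGA2 was lost in 9 of 16 refits without 1 array.

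**Figure D3:**
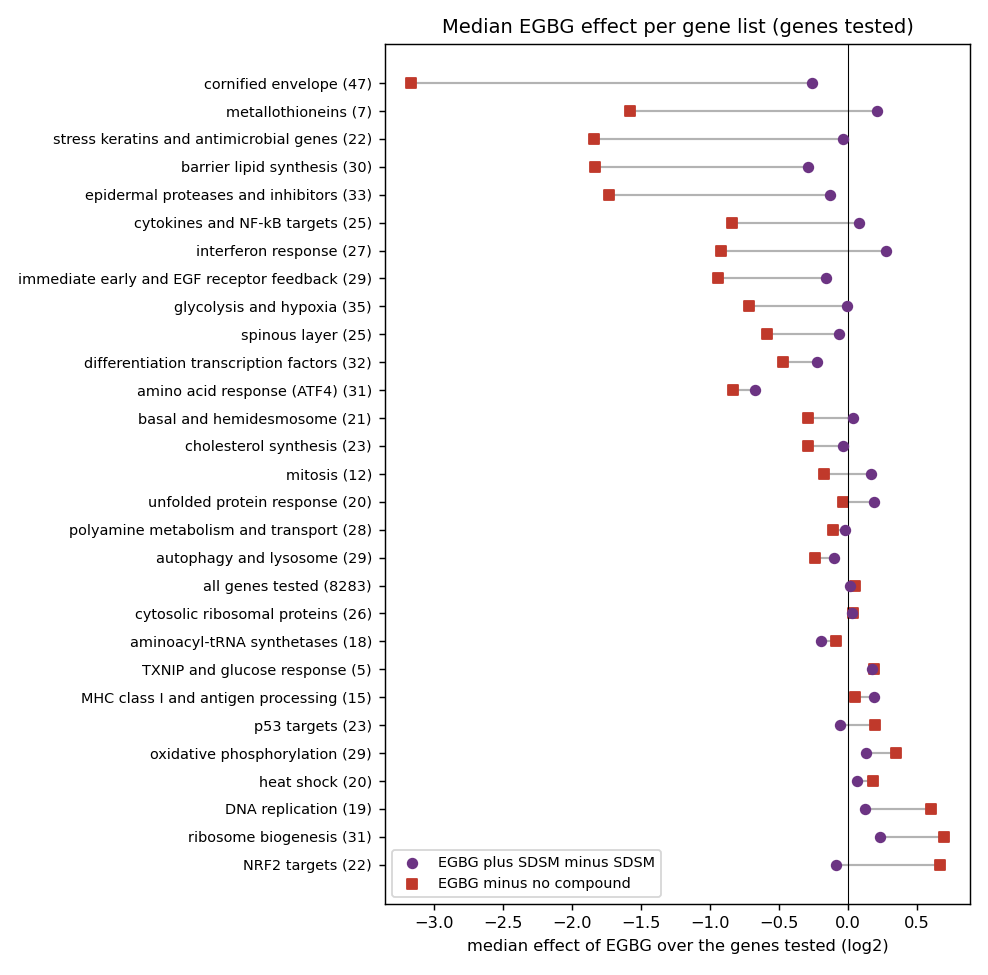
For each gene list, with its number of genes tested, circles give the median EGBG effect with spermidine/spermine and squares the median without it, as log2 differences. Cornified envelope genes lie at -0.26 with SDSM and -3.17 without, while the amino acid response list lies at -0.67 with SDSM and -0.83 without.

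Inflammatory genes also had positive interactions. Cytokines and NF-kB targets gave 12 positive and 0 negative of 25 (48%), with a median of 1.10, or 0.89 with undetected groups at their limit. IL1A, an alarmin stored in keratinocytes, measured 12.62, 12.27, 12.31 and 13.12 on EGBG+SDSM arrays and 12.86, 12.54, 12.60 and 12.46 on SDSM arrays, and 9.73, 8.89, 9.34 and 10.38 on EGBG arrays against 11.29, 12.16, 12.88 and 12.78 on day 6 arrays. EGBG arrays were again the low ones, without overlap, and the interaction was 2.65 ± 0.47 (SE, adjusted p = 0.000834). IL1B had an interaction of 1.79, and the collagenase MMP1, detected on 0 of 4 EGBG arrays, one of at least 1.21.

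Immediate early genes and feedback regulators of the EGF receptor pathway gave 11 positive and 1 negative of 29 (41.4%, median 0.72). DUSP6, a phosphatase that dampens ERK, averaged 10.99 ± 0.25 on EGBG+SDSM arrays and 10.93 ± 0.22 on SDSM arrays, and 8.33 ± 0.36 on EGBG arrays against 10.17 ± 0.46 on day 6 arrays (SD, n = 4 each), an interaction of 1.89 ± 0.32 (SE, adjusted p = 0.000512). The transcription factor JUN had one of 1.36, and the receptor ligand HBEGF one of 1.98. ATF3, a stress-induced factor, was the negative one at -1.33.

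Of 35 glycolysis and hypoxia genes, 14 had a positive and 1 a negative interaction (42.9%, median 0.70). BNIP3, a mitophagy receptor induced by hypoxia, averaged 13.19 ± 0.16 on EGBG+SDSM arrays and 12.999 ± 0.15 on SDSM arrays, and 11.05 ± 0.20 on EGBG arrays against 12.51 ± 0.20 on day 6 arrays (SD, n = 4 each), an interaction of 1.65 ± 0.21 (SE, adjusted p = 3.24e-05). SLC2A3, a glucose transporter, had an interaction of 3.37 and EGLN3, an oxygen-sensing hydroxylase, one of 2.94. The negative one was PFKM, a phosphofructokinase, at -0.99. The list of metallothioneins, which bind zinc and copper, with the zinc exporter SLC30A1 and the transcription factor MTF1 gave 5 positive and 0 negative of 7 (71.4%), with a median of 2.28 that falls to 1.69 with undetected groups at their limit. They were the 4 metallothioneins MT2A at 3.03, MT1E at 2.45, MT1G at 2.46 or more and MT1F at 1.69 or more, no EGBG array having detected MT1G or MT1F, and SLC30A1 at 1.12. Cholesterol synthesis gave 6 positive and 0 negative of 23 (26.1%, median 0.25).

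The negative interactions were mostly genes that rose with EGBG alone. COQ8A, a mitochondrial protein needed for coenzyme Q synthesis, was detected only on EGBG arrays among the 16. Its signals were 5.32, 5.35, 5.51 and 5.37 on EGBG+SDSM arrays, 5.37, 5.36, 5.52 and 5.32 on SDSM arrays, 8.88, 9.56, 9.27 and 9.45 on EGBG arrays and 5.57, 5.31, 5.37 and 5.44 on day 6 arrays. Without polyamines it was at least 6.48-fold higher with EGBG than on day 6 arrays (adjusted p = 8.59e-12, means 9.29 and 5.42). The fitted interaction of -3.87 carries no bound, since both groups with polyamines were undetected.

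HERC5, the ligase that attaches ISG15 to proteins, read 6.70, 6.37, 6.90 and 6.35 on EGBG+SDSM arrays and 6.23, 5.86, 5.97 and 6.05 on SDSM arrays, and 10.28, 9.47, 9.94 and 9.95 on EGBG arrays against 6.26, 6.22, 6.61 and 6.10 on day 6 arrays. It was well above the other groups on EGBG arrays, detected on 1 EGBG+SDSM, 0 SDSM and 1 day 6 array. Its fitted interaction of -3.05 ± 0.26 (SE, adjusted p = 3.63e-07) is no bound, since SDSM arrays did not detect it. EPCAM, an epithelial adhesion molecule that mature epidermis lacks, averaged 7.85 ± 0.38 on EGBG+SDSM arrays and 7.95 ± 0.41 on SDSM arrays, and 9.97 ± 0.35 on EGBG arrays against 7.11 ± 0.39 on day 6 arrays (SD, n = 4 each). Its interaction was -2.97 ± 0.35 (SE, adjusted p = 1.49e-05), and all 3 of its probes passed.

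The other 9 of the 12 largest negative interactions were -2.87 for the mitochondrial phospholipase PLD6, -2.58 for the lipid phosphatase INPP5D, -2.52 for RGL1 as fitted, -2.36 for GPD1L, -2.35 for the transmembrane glycoprotein GPNMB, -2.33 for ZFP64, -2.27 for the ribonucleotide reductase subunit RRM2B, -2.21 for the channel protein PANX2 and -2.14 for CABYR. The other PLD6 probe, with an interaction of -0.59, did not pass. All 9 genes rose with EGBG without polyamines, by 1.80 in GPNMB to 3.02 in PLD6. With polyamines their EGBG effects lay between -0.55 in GPNMB and 0.22 in RRM2B, and none passed. ZFP64, RRM2B, PANX2 and CABYR were detected on none of the 8 arrays with polyamines, so their interactions carry no bound. RGL1 was detected on 0 of 4 EGBG+SDSM arrays, and its interaction is -2.28 or lower.

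Targets of NRF2, the regulator of antioxidant and detoxification genes, gave 7 negative and 2 positive interactions of 22 (40.9%), with a median of -0.79 against -0.04 over all genes. NQO1, a quinone reductase, measured 9.64, 10.06, 10.57 and 10.04 on EGBG+SDSM arrays and 8.75, 9.74, 9.54 and 8.95 on SDSM arrays, and 12.09, 12.55, 12.65 and 12.85 on EGBG arrays against 10.26, 10.52, 10.33 and 10.51 on day 6 arrays. EGBG arrays were the highest, SDSM arrays were all below day 6 arrays, and EGBG+SDSM arrays overlapped SDSM arrays. The EGBG effect was 0.83 with SDSM (adjusted p = 0.148, or 0.0426 with the replicate number as a block) and 2.13 without, and the interaction was -1.30 ± 0.33 (SE, adjusted p = 0.0114). Both subunits of the enzyme that starts glutathione synthesis followed it, GCLC with an interaction of -1.39 and GCLM with -1.50. HMOX1, heme oxygenase, and ABCC3, an export pump, were the positive ones at 2.66 and 2.00.

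Ribosome biogenesis gave 8 negative and 0 positive of 31 (25.8%, median -0.56), with an EGBG effect whose median was 0.23 with SDSM and 0.70 without. Its lowest value was -1.67 in RRP12, followed by -1.21 in DKC1, the pseudouridine synthase of ribosomal RNA. DNA replication gave 5 negative and 1 positive of 19 (31.6%, median -0.42), among them -1.10 for PCNA, the sliding clamp. MCM4, a helicase subunit, was detected on 0 of 4 EGBG+SDSM and 0 of 4 day 6 arrays, and its interaction, -1.15 as fitted, is -0.28 or lower. The positive one was the G1 cyclin CCND1 at 1.34. Mitosis genes gave 3 positive and 1 negative of 12 (33.3%), with a median of 0.15 that turns to -0.01 with undetected groups at their limit. The positive ones were NUSAP1 at 1.21 and, with 0 of 4 EGBG arrays detecting them, UBE2C at 1.09 or more and CDC20 at 0.67 or more. CDC20 lost its call in 11 of 16 refits without 1 array. The negative one was CKS1B at -0.81, whose other probe (-0.73) did not pass, nor did that of NUSAP1 (0.20).

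Targets of p53 gave 6 negative and 1 positive of 23 (30.4%), with a median of -0.23, or -0.14 at the limits. The cell cycle inhibitor CDKN1A averaged 14.73 ± 0.06 on EGBG+SDSM arrays and 14.71 ± 0.10 on SDSM arrays, and 15.57 ± 0.12 on EGBG arrays against 14.80 ± 0.15 on day 6 arrays (SD, n = 4 each), an interaction of -0.74 ± 0.17 (SE, adjusted p = 0.00705). These signals lay near the highest of any probe, 15.92, where differences can be compressed. SESN1, a sestrin, was detected on none of the 8 arrays with polyamines, so its fitted interaction of -2.13 carries no bound. TP53I3, a quinone reductase detected on 0 of 4 EGBG arrays, was positive at 2.82 or more, but its other probe, at 0.33, did not pass. Heat shock genes gave 4 negative and 2 positive of 20 (30%), with a median of -0.35, or -0.18 at the limits. The inducible HSP70 gene HSPA1A had an interaction of -2.10, and HSPB8, a small chaperone, one of 1.71. FKBP4, at -0.56 (adjusted p = 0.0494), kept its call in 1 of 16 refits without 1 array, the one without EGBG+SDSM replicate 1.

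Interferon response genes differed from the differentiation genes in what polyamines did without EGBG. Of 27 tested, 12 had a positive interaction and 2 a negative one (51.9%, median 1.10). All 12 positive ones fell with EGBG without polyamines, which selection by a positive interaction favours. Of all 842 genes with one, 809 passed for EGBG without polyamines and not with them. Of the 12 interferon response genes, 8 also fell with SDSM without EGBG. Over all genes with a positive interaction, 73 of 842 fell with each compound alone, whereas 285 fell with EGBG alone and rose with SDSM alone. The median SDSM effect without EGBG was -1.15 in the interferon list and 0.66 in the cornified envelope list.

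ISG15, the ubiquitin-like protein that interferon induces, measured 6.39, 6.54, 6.77 and 6.90 on EGBG+SDSM arrays, 6.11, 6.74, 5.94 and 6.19 on SDSM arrays, 7.18, 5.65, 6.97 and 5.85 on EGBG arrays and 7.79, 8.15, 8.46 and 7.89 on day 6 arrays. It was highest in the absence of any compound, and the 3 groups with a compound overlapped. Their signals lay around the lowest detected signals of these arrays, 6.55 to 6.88, where a further fall with both compounds could hardly be measured. The interaction was 2.07 ± 0.41 (SE, adjusted p = 0.00244), with a SDSM effect of 0.24 with EGBG and -1.83 without. IFIT1, which binds foreign RNA and was detected on 0 of 4 SDSM arrays, had an interaction of at least 1.41.

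MX1, an antiviral GTPase, and IFI27, a mitochondrial protein induced by interferon, had interactions of 1.39 and 2.80 at adjusted p of 0.0369 and 0.0411. IFI27 measured 13.26 on EGBG replicate 1 and 9.53, 11.31 and 9.58 on the other EGBG arrays, against 12.77 to 13.42 on day 6 arrays. The calls were lost in 11 of 16 refits without 1 array for MX1 and in 12 for IFI27, whose adjusted p reached 0.0905. The negative members, HERC5 and the antiviral TRIM22, rose with EGBG. TRIM22 was detected on none of the 8 arrays with polyamines, so its fitted -1.27 carries no bound. LGALS1, galectin 1, is not on the list and was named after its values were seen. It averaged 9.91 ± 0.57 on EGBG+SDSM arrays and 9.56 ± 0.68 on SDSM arrays, and 9.37 ± 0.44 on EGBG arrays against 11.34 ± 0.35 on day 6 arrays (SD, n = 4 each), an interaction of 2.32 ± 0.46 (SE, adjusted p = 0.00232). Genes of MHC class I and antigen processing gave 0 positive and 2 negative of 15 (median -0.22), 13.3% against 17.4% of all genes. The negative ones were the immunoproteasome subunit PSMB10 at -1.36 and the peptide transporter TAP2 at -1.13.

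**Figure D4:**
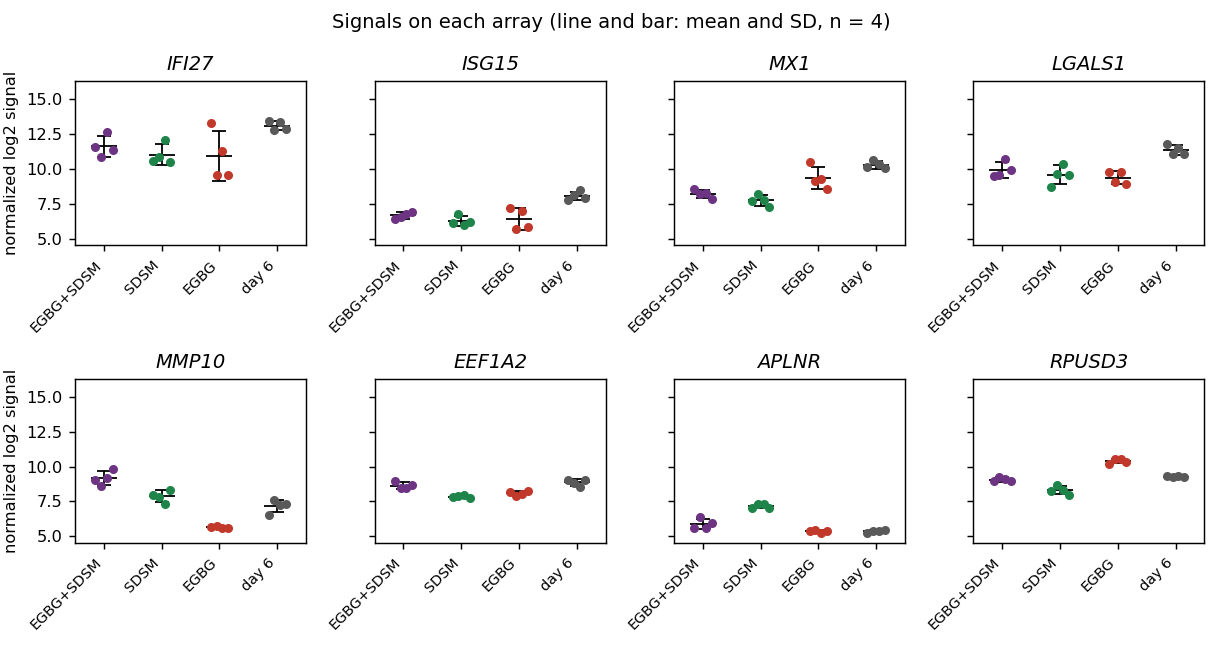
Normalized log2 signals of 8 genes on the 4 arrays of each group, with the group mean and SD. IFI27, ISG15, MX1 and LGALS1 had their highest mean on day 6 arrays; MMP10 and EEF1A2 were higher on EGBG+SDSM than on SDSM arrays and lower on EGBG than on day 6 arrays; APLNR was high on SDSM arrays alone, and RPUSD3 was higher with EGBG in both settings.

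In the polyamine pathway itself, 4 of 28 tested genes had a positive interaction and 2 a negative one. Together these made up 21.4%, near the 17.4% of all genes. The median was -0.01 against -0.04 over all genes, or -0.11 with undetected groups at their limit. The positive ones were ARG1, the second arginase ARG2 at 1.69, ODC1 and OAZ1. ODC1, the first enzyme of the pathway, read 8.54, 8.24, 8.13 and 8.34 on EGBG+SDSM arrays and 8.44, 8.57, 8.52 and 8.23 on SDSM arrays, and 7.95, 7.42, 7.20 and 7.27 on EGBG arrays against 8.55, 8.59, 8.98 and 8.70 on day 6 arrays. It was low on EGBG arrays without overlap, and the interaction was 1.12 ± 0.24 (SE, adjusted p = 0.00384). OAZ1, the antizyme that targets ODC1 for degradation, averaged 14.36 ± 0.08 on EGBG+SDSM arrays and 14.41 ± 0.04 on SDSM arrays, and 13.21 ± 0.25 on EGBG arrays against 14.04 ± 0.13 on day 6 arrays (SD, n = 4 each), an interaction of 0.78 ± 0.19 (SE, adjusted p = 0.00957) that did not pass under median centring (adjusted p = 0.106).

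AMD1, whose product EGBG inhibits, read 7.40, 8.12, 8.83 and 8.51 on EGBG+SDSM arrays and 8.51, 8.22, 8.38 and 8.74 on SDSM arrays, and 10.45, 8.88, 9.98 and 9.33 on EGBG arrays against 9.06, 7.62, 8.29 and 8.62 on day 6 arrays. The EGBG and day 6 arrays overlapped. The interaction was -1.51 ± 0.49 (SE, adjusted p = 0.0481), with an EGBG effect of -0.25 with SDSM and 1.26 without. This call was lost in 13 of 16 refits without 1 array and remained without day 6 replicate 1, EGBG replicate 2 or EGBG+SDSM replicate 3.

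AZIN1, the antizyme inhibitor, averaged 8.77 ± 0.14 on EGBG+SDSM arrays and 8.73 ± 0.11 on SDSM arrays, and 10.33 ± 0.25 on EGBG arrays against 9.62 ± 0.22 on day 6 arrays (SD, n = 4 each). Its interaction of -0.66 ± 0.21 (SE, adjusted p = 0.0458) was lost in 12 of the 16 refits, and its other probe, at -0.90, did not pass. SAT1, the acetyltransferase that starts polyamine catabolism, had an interaction of 0.54 (adjusted p = 0.0802). Those of the synthases SRM and SMS were -0.33 and 0.11 and that of the oxidase SMOX, detected on 0 of 4 EGBG arrays, was 0.41 as fitted, none past the threshold.

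The 34 probes at which EGBG had an effect beside polyamines were sensitive to single arrays in the fit without a block. Leaving out any array other than day 6 replicate 1 or EGBG+SDSM replicate 1 reduced them to between 1 and 13, and with these 2 arrays left out in turn 30 and 23 passed. MMP10, a stromelysin, had an EGBG effect in opposite directions: it measured 9.03, 8.61, 9.19 and 9.85 on EGBG+SDSM arrays and 7.96, 7.83, 7.35 and 8.35 on SDSM arrays, and was detected on 0 of 4 EGBG arrays at 5.63, 5.75, 5.57 and 5.60, against 6.51, 7.56, 7.27 and 7.33 on day 6 arrays. The groups did not overlap in either setting. With polyamines it rose by 1.30 (adjusted p = 0.0477), without them it was at least 1.46-fold lower (adjusted p = 0.000183, means 5.64 and 7.17), and the interaction, 2.83 as fitted (adjusted p = 4.29e-05), is at least 1.85.

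EEF1A2, a translation elongation factor, averaged 8.63 ± 0.24 on EGBG+SDSM arrays and 7.84 ± 0.10 on SDSM arrays, and 8.07 ± 0.16 on EGBG arrays against 8.86 ± 0.24 on day 6 arrays (SD, n = 4 each). It fell by 0.79 with EGBG alone and by 1.02 with SDSM alone, and the interaction was 1.58 ± 0.22 (SE, adjusted p = 8.86e-05). APLNR, the apelin receptor, was detected only on SDSM arrays, at 7.02, 7.28, 7.32 and 7.02, against 5.62, 6.39, 5.60 and 5.94 on EGBG+SDSM arrays. Its mean was 5.35 on EGBG arrays and 5.36 on day 6 arrays, so its interaction of -1.26 carries no bound, and it did not pass under median centring (adjusted p = 0.112). MYO5B, a vesicle motor, and PLD1, a phospholipase, rose with EGBG beside polyamines by 0.71 and 0.82 and had interactions of 0.90 and 0.79.

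Other genes changed with EGBG in the same direction in both settings, with no interaction past the threshold. RPUSD3, a mitochondrial pseudouridine synthase, read 8.97, 9.26, 9.10 and 8.93 on EGBG+SDSM arrays and 8.26, 8.69, 8.30 and 7.96 on SDSM arrays, and 10.18, 10.52, 10.52 and 10.36 on EGBG arrays against 9.30, 9.22, 9.36 and 9.23 on day 6 arrays. In both settings the arrays with EGBG lay above those without. The EGBG effect was 0.77 with SDSM and 1.12 without. LAS1L, a ribosome biogenesis factor, rose in both settings as well, by 0.79 with SDSM and 0.83 without. TTC27 was at least 1.97-fold higher with EGBG beside SDSM, where 0 of 4 SDSM arrays detected it, and rose by 1.67 without SDSM. SKIL, PKD1L2 and CYB5D2 fell in both, and none of the 3 was detected on an EGBG array. Their EGBG effects with SDSM each had an adjusted p of 0.0477 (limma). The other PKD1L2 probe had effects of 0.20 with SDSM and -0.18 without. SKIL was at least 1.54-fold lower with SDSM and at least 1.16-fold lower without, and CYB5D2 at least 1.19-fold lower with SDSM and at least 1.49-fold lower without. PKD1L2 fell by 0.89 on the log2 scale with SDSM and was at least 1.05-fold lower without. How the sizes of such bounded effects compare between the settings was not measured. TIMM8A, a mitochondrial import chaperone named after its values were seen, rose by 1.16 with SDSM and 0.71 without.

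Amino acid response genes, the targets of ATF4, had a median EGBG effect below 0 in both settings, as did several other lists. The cornified envelope list, for example, lay at -0.26 with SDSM and -3.17 without, and aminoacyl-tRNA synthetases at -0.19 and -0.08. Over the 31 tested amino acid response genes the median was -0.67 with SDSM and -0.83 without. Of the interactions 3 were positive and 2 negative, 16.1% against 17.4% of all genes. The effect was lower with SDSM than without in 12 of the 31 genes. The list was chosen with earlier results of these data known, and its genes were measured on the same arrays. The shares of its genes set beside those of all genes are therefore descriptive and no test. With SDSM the effect was below 0 in 31 of 31 genes, against 48.2% of all genes. None passed the adjusted threshold (limma, lowest adjusted p 0.0845), but 3 passed as lower with the replicate number as a block, against 35 of all 8283 genes, and 8 with a block within each setting, against 89, while 20 (64.5%) were lower at an unadjusted p under 0.05, against 5.65% of all genes. Without SDSM, 20 (64.5%) passed as lower, against 19.3% of all genes. The list's median level was 9.55 to 10.31 on EGBG+SDSM arrays and 10.21 to 11.02 on SDSM arrays, which overlap, although the EGBG+SDSM array was the lower one in 4 of 4 same-numbered pairs. The same held in 4 of 4 pairs for the lists of cornified envelope, differentiation transcription factors, aminoacyl-tRNA synthetases, metallothioneins, and autophagy and lysosome. The level of the amino acid response list was 9.01 to 9.62 on EGBG arrays against 10.26 to 10.87 on day 6 arrays, which do not overlap. By this level the mean difference was -0.69 with SDSM and -1.35 without, farther apart than the medians of the gene effects.

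ASNS, asparagine synthetase, read 11.13, 8.55, 10.65 and 10.04 on EGBG+SDSM arrays and 12.24, 11.03, 10.92 and 11.82 on SDSM arrays, and 9.999, 8.42, 8.59 and 9.45 on EGBG arrays against 11.54, 11.54, 12.28 and 11.86 on day 6 arrays. The EGBG+SDSM arrays spread over more than the other groups. The EGBG effect was -1.41 with SDSM (adjusted p = 0.21) and -2.69 without (adjusted p = 0.000205), and the interaction was 1.28 ± 0.65 (SE, adjusted p = 0.223). PHGDH, the first enzyme of serine synthesis, had the lowest adjusted p of the list with SDSM. It averaged 10.96 ± 0.59 on EGBG+SDSM arrays and 12.13 ± 0.22 on SDSM arrays, without overlap, and 11.88 ± 0.52 on EGBG arrays against 12.71 ± 0.12 on day 6 arrays (SD, n = 4 each), an interaction of -0.34 ± 0.38 (SE, adjusted p = 0.637). The adjusted p of its EGBG effect with SDSM was 0.0294 with the replicate number as a block.

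CBS, which makes cystathionine, had an EGBG effect of -1.45 with SDSM and -2.87 without. PSAT1, also of serine synthesis, had effects of -1.84 with SDSM and -2.30 without, and CHAC1, which degrades glutathione, of -1.86 with SDSM and at least 2.51-fold lower without, where no EGBG array detected it. None of the 3 interactions passed, at 1.42, 0.45 and, as fitted, 0.67, but that of CBS did with the replicate number as a block (adjusted p = 0.023), as did its EGBG effect with SDSM (adjusted p = 0.0375). With a block within each setting, the EGBG effects of PSAT1 and CHAC1 with SDSM also passed (adjusted p = 0.0318 and 0.0242). Members past the interaction were DDIT4 at 1.55, PCK2 at 1.17 and PPP1R15A on the positive side and ATF3 and MTHFD1L on the negative one. PPP1R15A, at 0.79, lost its call in 11 of 16 refits without 1 array and MTHFD1L in 7.

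**Figure D5:**
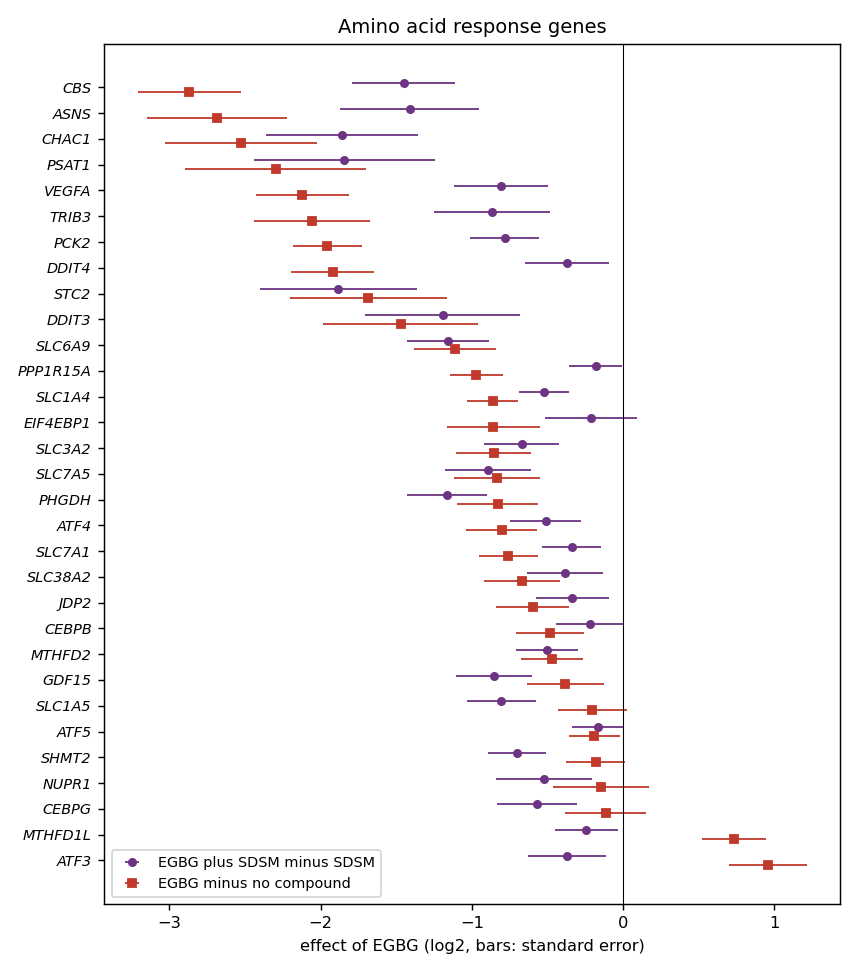
EGBG effects on the 31 amino acid response genes as log2 differences with standard errors, circles with spermidine/spermine and squares without. With spermidine/spermine all 31 values lie below 0, with 0 past the adjusted threshold in the fit without a block.

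Read from the side of the polyamines, the same interaction is the SDSM effect with EGBG minus that without. SDSM changed 6388 probes in cells with EGBG (49.1%; 2884 higher, 3504 lower) and 2913 in cells without (22.4%; 1477 higher, 1436 lower). Under median centring the split without EGBG was 1608 higher and 941 lower, with the median of all probes at 0.08 in place of -0.02, and in the further table the split with EGBG was 2725 higher and 2201 lower. Of the 1951 probes past the interaction, 1243 passed for SDSM with EGBG alone, 519 had a larger effect of the same sign with EGBG, 68 turned and 92 passed without EGBG alone. Of the 2913 probes changed without EGBG, 2371 also changed with EGBG, 81.4% of that set and 37.1% of the 6388, and 2303 of them in the same direction.

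TXNIP, the glucose-responsive inhibitor of thioredoxin, gives an example of a SDSM effect in both settings. It read 8.51, 9.14, 9.25 and 8.51 on EGBG+SDSM arrays and 14.30, 14.33, 14.36 and 14.22 on EGBG arrays, and 8.96, 7.88, 7.32 and 7.57 on SDSM arrays against 12.94, 11.80, 9.0 and 10.81 on day 6 arrays. Arrays with polyamines lay below those without in both settings, and day 6 arrays spread widely. The SDSM effect was -5.45 with EGBG and -3.21 without, and the interaction was -2.25 ± 0.79 (SE, adjusted p = 0.066, or 0.0355 with the replicate number as a block).

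The remaining lists are set beside the 17.4% of all genes that passed the interaction. The TXNIP and simple epithelial lists, of 5 and 3 tested genes, lay above this share and the others in this paragraph below it. Cytosolic ribosomal proteins gave 0 positive and 1 negative of 26 (median -0.07), RPS23 at -1.05, and oxidative phosphorylation 0 of 29 in either direction (median -0.25). Aminoacyl-tRNA synthetases gave 1 and 1 of 18 (median -0.10), HARS1 at 0.87 and VARS1 at -1.04, the call of VARS1 being lost in 13 of 16 refits without 1 array. The unfolded protein response gave 1 positive, CRELD2 at 1.09, and 0 negative of 20 (median 0.11). Autophagy and lysosome genes gave 2 and 2 of 29 (median -0.02), with ATG2A at 1.46 and WIPI1 at 0.97 above 0 and the protease CTSL at -1.64 below it beside GPNMB. In the list of TXNIP and glucose response genes 1 of 5 was negative, the arrestin ARRDC4 at -1.76 (median -0.13, or -0.28 at the limits). In the simple epithelial list of 3 tested genes, KRT23 was positive at 3.48 and EPCAM negative.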

How the data were processed

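The intensity values deposited by the authors are linear and background-subtracted, judging by values below 0, and had not been normalized between arrays. The detection p-values were deposited in a further table, per the file headers, whose intensity values appear normalized, with 65.7% at a floor of 40. The submitters' processing notes name GenomeStudio, with parameters not given in the sources used here. At first the design had taken that table for the raw signals, and it served only as an alternative.

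Signals of all 24 arrays were corrected, offset by 16, quantile-normalized and put on the log2 scale with the neqc function (limma 3.58.1, R 4.3.3). The 4 groups entered 1 lmFit and eBayes fit without covariates, with two-sided contrasts adjusted by Benjamini-Hochberg over 13000 probes at a threshold of 0.05. The fit was also run on simulated data with independent noise on each array, which cannot show how correlated deviations of same-numbered arrays affect the p-values. Probes were named from the supplied annotation: 10218 tested probes had 1 symbol and 2782 were not named. The brightest of a gene's tested probes stood for it (8283 genes). Where a group was undetected on all 4 arrays, its level is a bound at the lowest signal among detected probes of each array, and a value called fitted ignores this. Same-numbered arrays' deviations correlated at 0.28 to 0.42 between EGBG+SDSM and SDSM and at 0.34 to 0.60 between EGBG and day 6, so for the EGBG effects the numbers pair the samples. Between polyamine settings replicate 1 did not correlate (-0.28 to -0.12), so the pairing does not extend over all 4 groups.

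Genes were named by a rule: polyamine genes, the 12 largest interactions of each sign, up to 6 genes of each class of EGBG effects, and for each of 32 lists up to 4 examples. Further members of the rarer sign in a list, such as DSC3, ID2, PFKM and TRIM22, and other genes named were chosen after their values were seen. The members and the lists, of 1021 entries with 695 tested, were chosen with earlier results of these data known. PAOX was not tested. Promoters came from a RefSeq table, which had 6828 of the 8283 genes; among the 24 largest interactions it had none for WFDC12, SPRR2C, PLA2G3, EPCAM, PLD6, RRM2B and PANX2.

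The alternatives were no background correction, median centring, an offset of 64, normalizing the 16 arrays alone, no detection filter, detection on 8 arrays, all 24 arrays in 1 fit, array weights, the replicate number as a block (also within each polyamine setting, chosen after seeing the data), the further table, the linear scale, and leaving out each array in turn.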

Additional observations from a re-analysis of the deposited data

Results flagged for a closer look

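Among 560 groups of 4 arrays of the genes named, 29 (5.18%) had 1 array far from the other arrays of its group by Dixon's criterion, which chance meets in about 1 in 20 groups. The normalized log2 signal of that array is given beside the nearest of the others. EGBG+SDSM replicate 1 was high for MYO5B (9.11, nearest 8.72) and ARG2 (7.78, nearest 7.57) and low for SESN1 (5.75, nearest 6.36). EGBG+SDSM replicate 2 was high for SLC2A3 (13.34, nearest 13.12). EGBG+SDSM replicate 3 was high for MT1F (7.95, nearest 7.31) and ID2 (11.44, nearest 11.02). SDSM replicate 1 was high for KLF4 (12.85, nearest 12.62). SDSM replicate 2 was high for EGLN3 (9.56, nearest 9.20) and low for SPRR2B (9.92, nearest 10.23). SDSM replicate 3 was high for DDIT4 (12.74, nearest 11.80) and low for DUSP6 (10.61, nearest 11.01). EGBG replicate 1 was high for GPD1L (10.19, nearest 9.64) and low for PSMB10 (10.90, nearest 11.60). EGBG replicate 2 was high for TAP2 (9.20, nearest 8.87) and KLF4 (10.26, nearest 9.99). EGBG replicate 3 was high for SMS (10.15, nearest 9.35) and KRT23 (8.10, nearest 7.43) and low for RRM2B (8.62, nearest 8.78). Day 6 replicate 1 was high for ZFP64 (7.30, nearest 6.12) and DSC3 (10.93, nearest 10.05) and low for HSPB8 (9.39, nearest 10.20). Day 6 replicate 2 was low for MT1F (7.46, nearest 7.64). Day 6 replicate 3 was high for PSAT1 (11.82, nearest 10.79) and low for CABYR (5.71, nearest 6.32), CDC20 (7.29, nearest 7.99), FLG (13.59, nearest 14.48), CDKN1A (14.57, nearest 14.86) and ALOX12B (11.94, nearest 13.05). Day 6 replicate 4 was high for SLC2A3 (12.58, nearest 12.17). Day 6 replicate 3 stood apart for the most genes, 6, and without it the interaction was past the threshold for 2097 probes.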

How the results depend on the processing

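The interaction was past the threshold for 1622 (without EGBG replicate 4) to 2097 probes (without day 6 replicate 3) when 1 array was left out, and for 1653 to 2832 under the other alternatives on the same signals. The further deposited table gave 1265. There, 554 tested probes stood at the floor of 40 on all 16 arrays, 223 of which had passed here, 206 as positive. For EGBG with SDSM, where 34 probes had passed, the count was 1 to 30 with 1 array left out, 1 without background correction, 0 under median centring, 18 without the detection filter, 141 with all 24 arrays in 1 fit, 238 with array weights and 2 in the further table. The ranges with 1 array left out were 4016 to 4841 for EGBG without SDSM, 2153 to 2954 for SDSM without EGBG and 5696 to 6615 for SDSM with EGBG. The replicate numbers pair the arrays within each polyamine setting and not between them. A fit with the replicate number as a block gave 2473 probes for the interaction, 5442 for EGBG without SDSM, 105 for EGBG with SDSM, 3648 for SDSM without EGBG and 7071 for SDSM with EGBG. A block within each setting, an alternative chosen after seeing the data, gave 3039 for the interaction and 225 for EGBG with SDSM. With either block the 151 named interactions past the threshold kept their calls, and CBS and TXNIP passed as well.

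Of 151 named genes past the interaction, 140 kept their call in each of 16 refits without 1 array, and 0 changed sign in them. Without the detection filter 20 of 151 lost it, and 22 of 120 did so among those measurable in the further table, ODC1, NQO1 and NOTCH1 among them. On the linear scale the sign turned for CDC20 (-101.5 units), EGR3 (-116.3) and OVOL1 (-24.3). The other sign changes were in interactions that had not passed. In the further table they were SRM at 0.13, TTC27 at 0.014, LAS1L at 0.15, RPUSD3 at 0.092 and PHGDH at 0.054. With an offset of 64 PKD1L2 was at -0.054, and under median centring CYB5D2 was at 0.11. With 1 array left out, the ranges were -0.064 to 0.33 for SMS, -0.24 to 0.027 for CYB5D2, -0.11 to 0.065 for LAS1L, -0.11 to 0.90 for PSAT1 and -0.086 to 0.24 for KRT10. The cause of these changes was not tested. An interaction has no bound where SDSM or EGBG arrays did not detect the probe and EGBG+SDSM or day 6 arrays did not either. This limits 148 of 821 negative and 15 of 1130 positive probes.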
